A study of Mus musculus with 4 samples.

Results

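Wide unmethylated valleys of the mouse colonic epithelium were described from whole-genome bisulfite sequencing, in which unmethylated cytosines are converted and read as thymine. A valley was a run of 4 or more adjacent autosomal 1000-bp windows, each with at least 5 CpGs, at least 30 calls and a methylation level below 15% in intestinal stem cells (ISCs) at postnatal day 0 (P0). The level of a window was the sum of its methylated calls over the sum of all its calls, on both strands. This rule found 1062 valleys among 24631 unmethylated runs of any length, or 4.31% of the runs. The members were thus chosen by their level in ISCs at P0, and every value of that library in them is given as a description.

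The samples formed 4 groups, with 1 library each: Lgr5-EGFP+ ISCs and EpCAM+ Lgr5-EGFP- differentiated epithelial cells, at P0 and at P21, all from the colon of untreated C57 mice. The mice came from crosses of Lgr5-EGFP-CreER knock-in mice, in which the endogenous Lgr5 sequences drive EGFP and the Cre recombinase, with wild-type C57 mice. Cells were pooled over litters at P0 and over EGFP+ offspring at P21, and the differentiated fraction was defined by lack of the reporter and presence of EpCAM only. With no replicates, Fisher's exact test compares the calls of 2 libraries and not the conditions.

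In mouse tissues most CpGs carry a methyl group, and the main exceptions are CpG islands (CGIs), which often hold gene starts. At some genes the unmethylated DNA runs on far past the island. Such valleys are known for transcription factor genes of embryonic patterning, which are often covered by Polycomb complexes in tissues that do not use them.

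The sequences below show what a valley and its edge looked like (200-bp bins of the mm9 build, + strand, CpGs in capitals). The Pax6 pair is an illustration, in which both intronic bins held 3 CpGs. The inside bin was picked among bins below the level limit of the rule in every library. Its low levels thus follow from that choice and are given as a description. The inside bin, chr2:105517401-105517600, lay 8447 bp from the nearest protein-coding start. None of 58 calls of the ISC library and none of 44 calls of the differentiated library were methylated at P0. At P21 the methylated calls were 1 of 49 (ISCs) and 3 of 50 (differentiated). The outside bin, chr2:105533801-105534000, was at 64.9%, 56.3%, 63.6% and 60.3% in ISCs P0, differentiated P0, ISCs P21 and differentiated P21.
Pax6 inside: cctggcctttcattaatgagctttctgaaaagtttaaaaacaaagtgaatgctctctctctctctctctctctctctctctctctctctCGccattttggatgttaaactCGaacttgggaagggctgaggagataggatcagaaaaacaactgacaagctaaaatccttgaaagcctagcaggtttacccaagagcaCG
Pax6 outside: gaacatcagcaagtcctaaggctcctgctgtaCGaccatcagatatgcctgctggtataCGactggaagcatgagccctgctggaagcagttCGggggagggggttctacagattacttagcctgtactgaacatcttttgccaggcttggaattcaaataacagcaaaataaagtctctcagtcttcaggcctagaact

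The other pair holds the bins, free of exons and with at least 50 calls per library, that moved most in the valleys described further on: the Trim71 bin (chr9:114467601-114467800, in an intron of Trim71) had the largest difference between P21 and P0 in differentiated cells, and the Hoxa6/Hoxa3 bin (chr6:52160201-52160400, in introns of Hoxa3, Hoxa6 or an overlapping non-coding transcript) the largest gap between the cell types at P21. The Trim71 bin was at 27.7%, 25.3%, 88.3% and 88.4% in the order just used. The Hoxa6/Hoxa3 bin was at 3.90%, 6.90%, 47.4% and 31.7%.
Trim71 bin: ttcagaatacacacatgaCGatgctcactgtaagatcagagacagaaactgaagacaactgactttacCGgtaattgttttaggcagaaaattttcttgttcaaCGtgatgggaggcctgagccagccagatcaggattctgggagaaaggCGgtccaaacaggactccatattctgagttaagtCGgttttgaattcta
Hoxa6/Hoxa3 bin: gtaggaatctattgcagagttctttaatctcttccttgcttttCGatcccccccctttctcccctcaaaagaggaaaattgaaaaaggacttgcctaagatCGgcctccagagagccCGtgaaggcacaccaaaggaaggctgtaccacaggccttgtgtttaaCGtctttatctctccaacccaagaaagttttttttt

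The deposited calls covered 93.5% to 97.3% of the autosomal CpGs, with a median of 16 (ISCs P0), 25 (differentiated P0), 17 (ISCs P21) and 21 (differentiated P21) calls per covered CpG. A valley held a median of 3010, 7022, 3451 and 5882 calls in the same order, so the differentiated libraries were read more deeply there. The regions within 500 bp of the starts of the epithelial genes Epcam, Cdh1, Vil1, Krt8 and Elf3 were below 2% in every library. That of Krt20, a keratin of mature cells, was at up to 56.2%. Those of the leukocyte genes Ptprc, Cd3e, Cd79a and Lyz2 were at 55.1% to 89.2%, and those of the endothelial genes Pecam1, Cdh5 and Tie1 at 48.7% to 75.5%. The fibroblast genes Col1a2, Pdgfra, Dcn and Thy1 were at 0.716% to 10.8% in the 4 libraries. Low levels were thus not limited to epithelial genes, and methylation at these starts does not check for fibroblasts. Nor does it check the split into ISCs and differentiated cells.

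The valleys spanned 6.03 Mb, or 0.244% of the autosomal sequence. Of them, 529 were 4 windows wide, 197 were 5 windows wide, 83 reached 10 windows and 7 reached 20. Just inside the limits of the rule, the valley at chr19:45814001-45818000 had a highest window at 14.98% in ISCs at P0. Just outside, a run of 3 windows at chr3:37538001-37541000 ended beside a window at the limit of 15%. Some valleys were pieces of a longer stretch, as 46 of the 1043 pairs of neighbours on a chromosome were 1 kb apart or closer. Chromosome 11 was the richest, with 6.89 valleys per 10 Mb, and chromosome 16 the poorest, with 2.54.

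Valleys lay at gene starts. A protein-coding start (the transcript with the longest coding sequence, GENCODE M1) was in 816 of the 1062 valleys (76.8%), against 42.1% of the 23569 runs of 1 to 3 windows. A wider run can hold a start more readily, so these shares depend on the width. The valleys covered 6028 windows and held 922 starts, while the shorter runs covered 33638 windows and 9926 of them held a start. Per window, starts were thus less frequent in valleys than in the shorter runs. In all, 922 of 21418 autosomal starts (4.30%) were in a valley, and 99 valleys held 2 or more starts. A whole protein-coding gene lay within 136 valleys (12.8%), and within 41 of the 83 valleys of 10 or more windows (49.4%), a share that depends on the width. By base, the valleys were 21.4% exon, 44.5% intron and 34.2% sequence outside genes. Among the 246 valleys without a start, 136 overlapped a protein-coding gene, 30 held the start of a long non-coding transcript and 91 did neither.

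The valleys were not simply long CGIs. A valley was covered by CGIs (500-bp windows with 25 or more CpGs) over a median of 50.9% of its length, and 50 valleys had no CGI base at all. Of the 6028 valley windows, 31.1% held no CGI base and had a median of 16 CpGs. In the runs of 1 to 3 windows the share was larger, at 38.7%, with a median of 13 CpGs, so such windows were not particular to valleys. Over all windows with enough CpGs and calls in ISCs P0, those without a CGI base had a median of 9 CpGs. The island-free windows of valleys were at a median of 4.83% in ISCs at P0, a value the rule holds below 15%. In the other libraries they were at 4.65% (differentiated P0), 4.93% (ISCs P21) and 4.73% (differentiated P21). All tested windows of the genome without a CGI were at medians of 84.5%, 84.5% and 84.0% in those libraries.

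Transcription factor genes were frequent in the widest valleys. Of 424 annotated genes on 8 lists of transcription factor families, 205 (48.3%) had their start in a valley, against 4.30% of all starts. The lists go by family and are not limited to factors of embryonic patterning. A listed factor was in 60 of the 83 valleys of 10 or more windows (72.3%), and in 38 of the 529 valleys of 4 windows (7.18%). Of the homeobox genes outside the HOX clusters, 93 of 143 started in a valley, as did 22 of 39 HOX genes, which set position along the body axis. The counts were 19 of 40 for forkhead factors, 34 of 74 for developmental zinc fingers, 7 of 17 for Sox factors, 19 of 54 for bHLH factors, 5 of 15 for T-box factors and 6 of 42 for nuclear receptors. Of the signaling genes, 20 of 62 of the Wnt pathway, from ligands to nuclear factors, and 15 of 61 other morphogen genes started in a valley, mostly a narrow one, with a median of 4 windows on both lists. None of the 78 ribosomal protein genes did, while 67 of them started in a run of 1 to 3 windows. The lists share genes, and they were scored only on where the genes start.

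**Figure D1:**
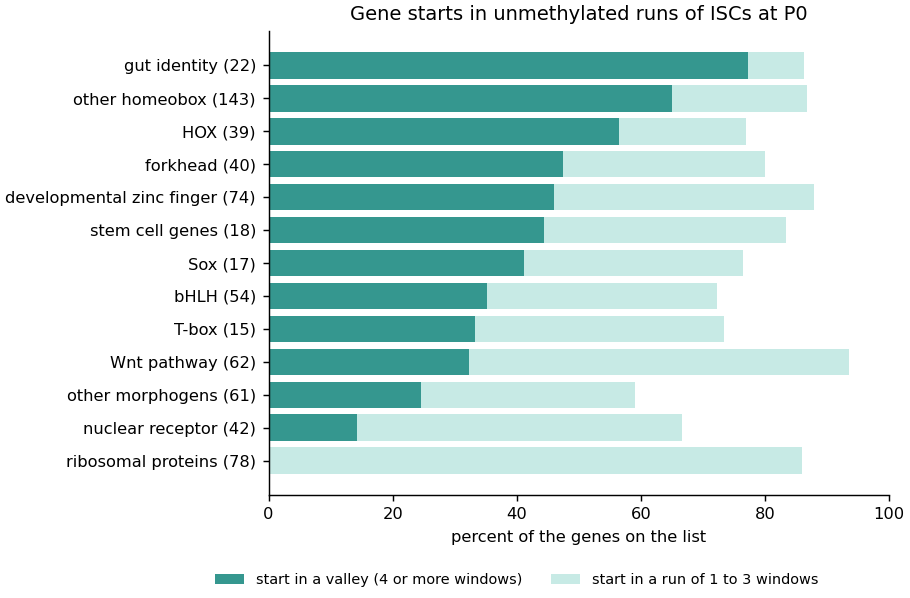
Percent of the genes on each list (number of genes in parentheses) whose start lay in a valley of 4 or more windows (dark) or in a run of 1 to 3 unmethylated windows (light) in ISCs at P0. Gut identity and homeobox genes have the longest dark bars, with 17 of 22 and 93 of 143 genes, and ribosomal protein genes have no dark bar.

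Genes of gut identity and of stem cells also started in valleys, 17 of 22 and 8 of 18 respectively. The valleys of the gut list included those of Nkx2-3 (19 windows), a homeobox factor of the gut wall, and of Foxa1 (15 windows), a pioneer factor of endoderm. The valleys of the stem cell list were narrower, with a median of 4.5 windows and a maximum of 8 at Sox9, a factor of the crypt base.

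The widest valleys described here belonged to homeobox genes, with Foxf2, a forkhead gene, at 19 windows beside Nkx2-3. The Pax6 valley (chr2:105499001-105532000), at the factor of eye formation, was 33 windows wide, lay wholly within annotated genes, and overlapped a transcript of the other strand. Its level was 2.24% (95% Wilson interval 2.03 to 2.47) in ISCs P0, 2.04% (1.89 to 2.20) in differentiated P0, 3.33% (lower bound 3.09) in ISCs P21 and 3.15% (2.95 to 3.37) in differentiated P21. In differentiated cells, which the rule did not use, the interval at P21 lay above that at P0. The intervals here and below cover counting error only, with every call treated as independent.

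The valleys of Uncx (25 windows), of Dlx1 and Dlx2 (24 windows), of Barhl2 (24 windows) and of Six3 (21 windows), all factors of the embryonic nervous system among other tissues, also had a higher level at P21 than at P0 in differentiated cells. In them the levels of differentiated cells ran from 1.54% to 2.15% at P0 and from 2.21% to 3.34% at P21. Nkx2-3 was at 2.53%, 2.10%, 3.69% and 3.48% in the 4 libraries.

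The valley of Hoxa7, Hoxa9 and Hoxa10 (chr6:52165001-52185000) was 20 windows wide, and its ISC library at P21 stood apart. It was at 3.34%, 3.83%, 7.99% and 4.74% in ISCs P0, differentiated P0, ISCs P21 and differentiated P21. No window of it passed with a difference over 15 points in either tested comparison, with age in differentiated cells or between the cell types at P21. In ISCs from P0 to P21, a comparison that uses the library of the rule, 2 windows were higher by over 15 points.

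Of the valleys without a protein-coding start, the widest (chr7:86641001-86658000, 17 windows) lay 29842 bp from the nearest start, that of Polg, and held part of a long non-coding gene and a whole miRNA gene of the annotation. It was at 4.27%, 3.32%, 4.83% and 4.28% in the 4 libraries, and 1 of its windows was called lower in differentiated cells than in ISCs at P21. The next, of 12 and 11 windows, lay 275 bp from the start of Tlx1 and 329 bp from that of Tbx5, factors of spleen and of heart and limb formation, and overlapped these genes. At P21 they were at 2.30% and 3.34% in ISCs and at 2.52% and 2.48% in differentiated cells.

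**Figure D2:**
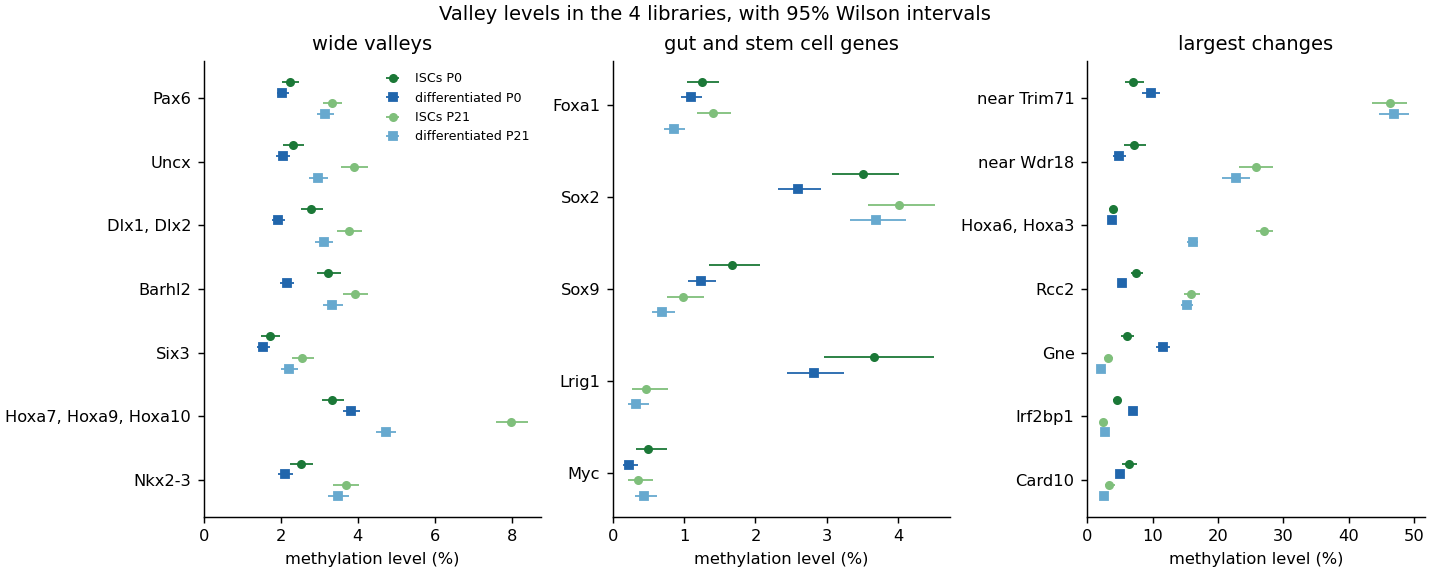
Methylation level (%) of named valleys in the 4 libraries, with 95% Wilson intervals for counting error (green circles, ISCs; blue squares, differentiated cells; dark, P0; light, P21; the axes differ between panels). In each wide valley of the first panel the light blue point of differentiated cells at P21 (2.21% to 4.74%) sits to the right of the dark blue point at P0 (1.54% to 3.83%), and the valley near Trim71 moves from under 10% to over 46%.

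The mean profile across the edges of the valleys was nearly the same in the 4 libraries. The ends were set where windows of ISCs at P0 stopped meeting the rule, so a step at that point follows from the choice. In the first 200-bp bin inside the end of a valley the mean level was 16.4% in ISCs P0, 17.3% in differentiated P0, 17.6% in ISCs P21 and 17.5% in differentiated P21. At 900 bp inside it was 2.46% to 3.15%, and at 900 bp outside 58.7% to 59.4%. The mean number of CpGs per bin changed over the same stretch, from 3.71 at 900 bp outside to 9.98 at 900 bp inside.

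**Figure D3:**
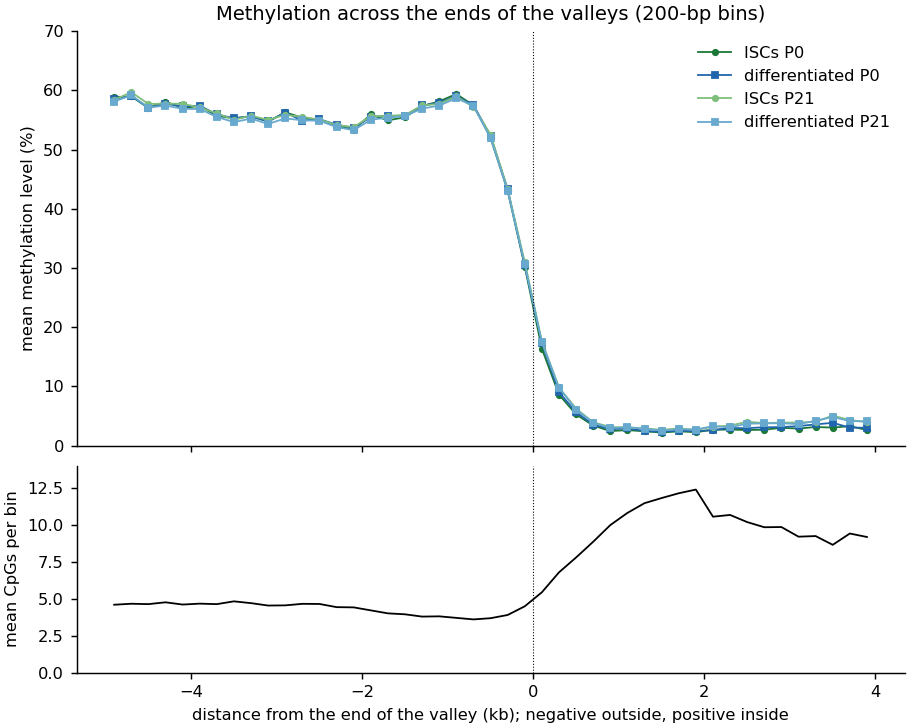
Mean methylation level (%, upper panel) in the 4 libraries and mean number of CpGs per bin (lower panel) in 200-bp bins against the distance from the end of a valley in kb, both ends combined. The 4 curves lie on each other and fall from 58.7% to 59.4% at 0.9 kb outside to 2.46% to 3.15% at 0.9 kb inside. The ends were set by the rule in ISCs at P0, so a step there follows from the choice.

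Edges were also set in each library on its own, as the first of 2 successive bins at 50% or more going outward from the middle. Both edges were found in every library for 1007 valleys. Their median width was 6.8 kb in each of the 4 libraries. From P0 to P21 in differentiated cells the median change in width was 0 bp, with 309 valleys wider, 326 narrower and 372 equal. Between differentiated cells and ISCs at P21 it was also 0 bp, with 330 wider, 231 narrower and 446 equal. The Pax6 valley measured 34.2 kb in all 4 libraries, and the Sox9 valley 9.4 kb.

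Although the median was 0, many widths differed between libraries. From P0 to P21 in differentiated cells 490 (48.7%) stayed within 200 bp, while 129 were wider and 141 narrower by over 1 kb. Between differentiated cells and ISCs at P21, 576 (57.2%) were within 200 bp, and 121 were wider and 89 narrower by over 1 kb. Differences of this size were thus also present between libraries of the same age. By the same measure the valley near Trim71 was 12.4 kb wide in ISCs at P0, and 0.4 kb (ISCs) and 2.0 kb (differentiated) at P21. The Gne valley was 22.8 kb wide in ISCs at P0 and 22.2 kb in both P21 libraries, but 4.6 kb in differentiated cells at P0. Of the 1737 windows next to an end on the outside, 97 (5.58%) were called higher and 101 (5.81%) lower at P21 in differentiated cells, by the test given further on, against 24 (1.15%) and 10 (0.477%) of 2095 end windows. Over all windows of the genome the shares were 0.985% and 2.24%. In differentiated cells at P0 the median level was 45.5% in the outside windows, 3.61% in the end windows and 84.3% in all windows. The rule holds the end windows low, with little room for a fall over 15 points. The shares thus depend on the starting level and are not read as a trait of the edges.

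Most valley windows stayed low in the libraries that had not chosen them. Of 5974 valley windows tested in all libraries, 92.2% were below 15% in all 4, and 687 of the 1062 valleys (64.7%) had every window below 15% throughout. When another library was used, the same rule found 1146 runs (differentiated P0), 1189 runs (ISCs P21) and 1283 runs (differentiated P21). These overlapped 90.5%, 87.3% and 89.6% of the valleys. Conversely, 84.4%, 78.3% and 75.3% of those runs overlapped a valley.

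The change with age was tested in differentiated cells, with Fisher's exact test on the calls of all 1444772 autosomal windows with enough CpGs and calls and Benjamini-Hochberg adjustment. A window was called at an adjusted p below 0.05 and a difference over 15 points. Of the valley windows, 45 (0.753%, in 32 valleys) were called higher at P21, against 0.985% of all windows. The calls lower at P21 were 16 (0.268%, in 14 valleys), against 2.24% of all windows. Both shares were below the background, and a window below 15% cannot fall by over 15 points.

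The direction of these calls rested on the library that chose the valleys. ISCs at P0 share their age with 1 side of the comparison, so windows that are lower at P0 in both cell types were more readily members. When the same rule was applied to ISCs at P21, the calls were 5 higher and 308 lower, and on the calls of the 4 libraries summed they were 6 higher and 51 lower. The median change per valley was 0.27 points for the valleys as chosen, 0.18 for the summed libraries and 0.0046 for ISCs at P21. No direction is therefore read from the 45 and 16.

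Differences too small for the limit of 15 points were counted at any size, a rule chosen after the data were seen. By it 597 valley windows (9.99%) were higher at P21, against 3.74% of all windows, and 283 (4.74%) were lower, against 5.07%. These counts also turned over with the library of choice, to 446 higher and 823 lower for valleys chosen in ISCs P21 and to 481 and 854 in differentiated P21 (a library of the comparison), while on the summed calls they were 534 and 414. No excess of rises over all valleys is therefore read from them. Windows of the runs of 1 to 3 were higher in 7.44% and lower in 10.2% of cases. Deeply read windows near 0% can pass with differences of about 1 point, so these shares are read with their sizes, given next. Bisulfite conversion rates were not available for a check, and a difference in conversion between single libraries cannot be told apart from a small shift shared by all valleys.

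The small differences were not spread evenly over the valleys. In the 199 valleys with a start of a listed transcription factor, the median change in differentiated cells was 0.80 points (quartiles 0.33 and 1.22), and 174 were higher at P21. Of their 1735 windows, 242 (13.9%) were called higher at any size and 30 (1.73%) lower, against 3.74% and 5.07% of all windows. In the 617 valleys with another protein-coding start the median change was 0.078 points, with 349 higher, and of 3003 windows 231 (7.69%) were called higher and 189 (6.29%) lower. The 246 valleys without a start were in between, at a median of 0.43 points, with 175 higher. Valleys of this kind were at 0.033 and 0.037 points when chosen in ISCs P21 and differentiated P21. Some of the 246 held the start of another transcript, as 892 of all valleys held an annotated start of any protein-coding transcript. In the 83 valleys of 10 or more windows the median was 0.97 points and 77 were higher, against 0.11 points and 305 of 529 for valleys of 4 windows. These are largely the same valleys, as 60 of the 83 had a start of a listed factor. Valleys with a listed factor had a median of 7 windows, against 4 for those with another start. The kind of gene and the width were thus not told apart.

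Unlike the counts over all valleys, this difference between kinds of valley was present whichever library chose the members. For valleys with a listed factor the median change was 0.87 points when chosen in differentiated P0, 0.67 in ISCs P21, 0.65 in differentiated P21 and 0.78 on the summed calls. For valleys with another protein-coding start it was 0.13, -0.13, -0.13 and 0.036 points. Both differentiated libraries belong to the comparison itself and are part of the summed calls, so only the choices in ISCs lie outside it. Each ISC library still shares its age with a side of the comparison. With every CpG given the same weight, the medians for the valleys as chosen were 0.65 points (listed factors) and 0.039 points (other starts). In ISCs, where the change uses the library of the rule and is a description, the medians were 0.84 and 0.087 points.

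By list, the median change in differentiated cells was 0.91 points over 91 homeobox valleys (84 higher), 0.82 over 18 HOX valleys (16 higher), 0.89 over 19 forkhead valleys (15 higher), 0.55 over 34 zinc finger valleys (27 higher), 1.08 over 7 Sox valleys (5 higher), 0.67 over 19 bHLH valleys (17 higher) and 1.72 over 5 T-box valleys (5 higher). The valleys of morphogen genes were similar, with a median of 0.77 points and 15 of 15 higher, and those of the Wnt pathway had 0.33 points, with 13 of 20 higher. Of the named Wnt valleys, Lef1 differed by 0.22 points, Lgr4 by 0.025 points and Tcf7l2, a factor that carries the Wnt signal in the nucleus, by -0.76 points (1.40% and 0.640%), with no window called in any of them. The 6 nuclear receptor valleys had 0.14 points. The median over all 1062 valleys was 0.27 points, with 698 (65.7%) higher. The shares of the Wnt and Sox valleys that were higher were close to this, so these 2 counts are not read as traits of their lists.

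Valleys of gut identity and stem cell genes had medians of the opposite sign. The 17 gut valleys had a median change of -0.24 points with 6 higher, and the 8 stem cell valleys one of -1.02 points with 2 higher. Together these 25 valleys had a median of -0.25 points. The sets found by the same rule in the other libraries held 19 to 25 valleys that need not be the same ones. They had medians of -0.24 to -0.40 points, and the 24 found on the summed calls one of -0.34 points. Both differentiated libraries belong to the comparison and are part of the summed calls. Of the 177 windows of the 25 valleys, 14 were called higher and 26 lower at any size, where the shares over all windows were 3.74% and 5.07%. The gut list had 13 higher and 16 lower of 138 windows, and the stem cell list 1 and 10 of 39. Chosen in ISCs P21, the counts over both lists were 10 and 52 of 195 windows. Some of these genes are also listed factors, such as Foxa1 and Sox9.

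**Figure D4:**
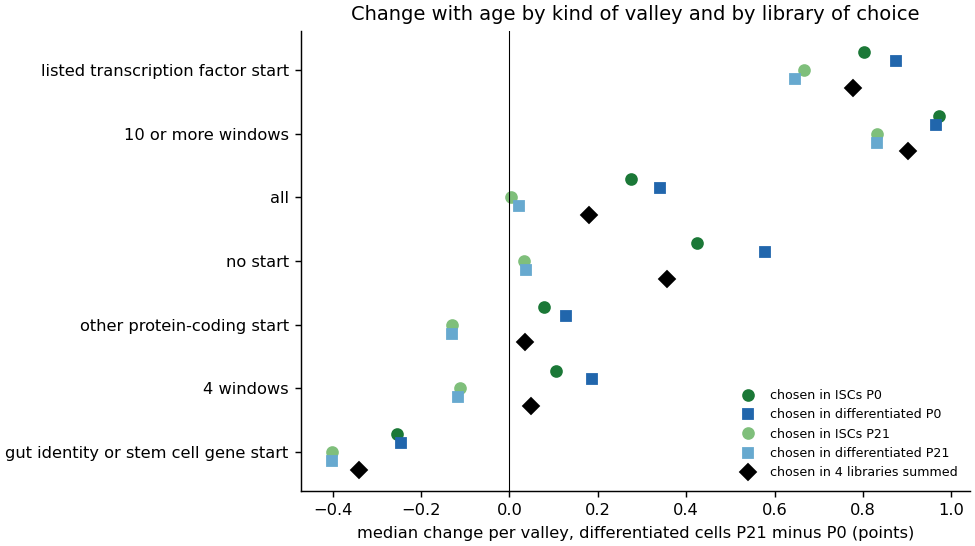
Median change of the valley level in differentiated cells, P21 minus P0 (points), for kinds of valley, with the valleys chosen by the same rule in each library (circles and squares) or on the summed calls (black diamonds). The points for listed factors lie between 0.65 and 0.87 in every choice, those for gut and stem cell genes between -0.40 and -0.24, and those for all valleys between 0.0046 and 0.34.

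Lrig1, a membrane regulator of growth factor signaling and a stem cell marker, had 3 windows called lower in differentiated cells. Its valley (chr6:94646001-94652000, 6 windows) was at 3.66% in ISCs P0, 2.82% in differentiated P0, 0.459% in ISCs P21 and 0.330% in differentiated P21. In differentiated cells the intervals of the ages did not overlap. In its first window the level fell in differentiated cells from 26.7% to 1.08% (adjusted p = 5.25e-20, Fisher's exact test). At Sox9 the valley was at 1.67%, 1.23%, 0.988% and 0.690% in the 4 libraries, and 1 window was called lower. Among the remaining named valleys of these lists none had a called window. Foxa1 was at 1.24%, 1.09%, 1.40% and 0.855%, and Myc at 0.491%, 0.225%, 0.349% and 0.444%. Not every valley of these lists was lower at P21: in differentiated cells that of Nkx2-3 differed by 1.37 points, that of Sox2 by 1.09 points (2.60% and 3.69%) and that of Myc by 0.22 points, all higher at P21. Over the gut list 1 of 138 windows was called higher and none lower. Over the stem cell list none of 39 was called higher and 5 lower, 3 of them at Lrig1, where the shares over all windows were 0.985% and 2.24%.

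The largest fall among valleys with a called window was at Gne, the key enzyme of sialic acid synthesis (chr4:44094001-44098000, 4 windows, no CGI base). The valley was at 6.12% in ISCs P0, 11.6% in differentiated P0, 3.15% in ISCs P21 and 2.06% in differentiated P21. Differentiated cells at P0 stood above the other 3 libraries. Its first window fell from 34.8% to 7.17% in differentiated cells (adjusted p = 1.22e-35, Fisher's exact test). The valleys of Irf2bp1, a transcriptional corepressor (7.06% to 2.67%), and of Card10, a scaffold of NF-kB signaling (4.97% to 2.63%), also had 1 window called lower each.

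The largest rise lay in an intron of Trim71, a regulator of mRNA in stem cells and embryos (chr9:114463001-114468000, 5 windows, 60 CpGs, no CGI base, 5487 bp from the start). The valley was at 7.08% (5.75 to 8.68) in ISCs P0, 9.68% (8.43 to 11.1) in differentiated P0, 46.2% (43.6 to 48.9) in ISCs P21 and 46.9% (44.6 to 49.2) in differentiated P21. The ages were far apart and the cell types at P21 were not. Of its 5 windows, 4 were called higher in differentiated cells, and the last rose from 16.5% to 72.7% (adjusted p = 1.68e-64, Fisher's exact test). Its first window differed by 1.41 points and was not called (adjusted p = 0.809, Fisher's exact test).

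The next rise was also island-free and intronic, in Arid3a, an AT-rich DNA-binding factor (chr10:79406001-79410000, 12897 bp from the nearest start, that of Wdr18). It was at 7.15%, 4.91%, 25.7% and 22.7% in ISCs P0, differentiated P0, ISCs P21 and differentiated P21, with 3 of 4 windows called higher. At Rcc2, a gene of chromosome segregation, the valley was at 7.51%, 5.32%, 15.9% and 15.2%, and 1 window accounted for the call, rising from 11.1% to 56.2% (adjusted p = 6.28e-139, Fisher's exact test). Valleys near Scrt2 (3.84% to 12.5% in differentiated cells) and at Six5, a homeobox factor (2.74% to 9.17%), had 1 called window each. Of the 45 windows called higher in valleys, 31 were among the 1829 tested windows without a CGI base (1.69%) and 24 among the 2095 end windows (1.15%), against 0.541% of inner windows, 0.267% of windows at least 500 bp of which were CGI and 0.985% of all windows of the genome. Of the 16 called lower, 12 held no CGI base (0.656% of such windows) and 10 were end windows (0.477%), both below the 2.24% of all windows of the genome.

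**Figure D5:**
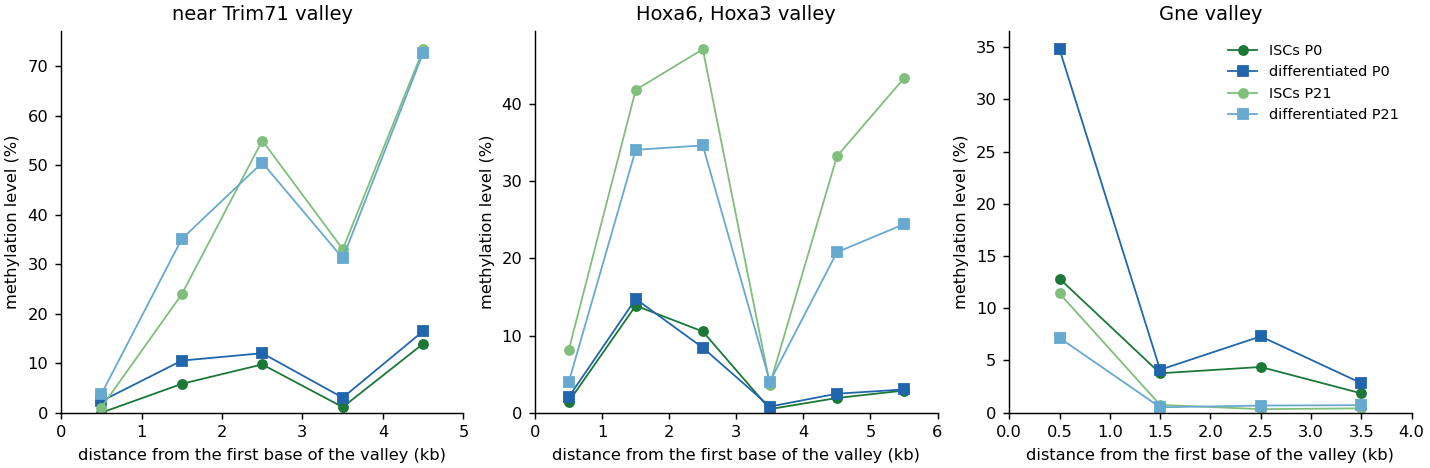
Methylation level (%) of each 1000-bp window along 3 valleys, against the distance from the first base of the valley in kb, in the 4 libraries (green circles, ISCs; blue squares, differentiated cells; dark, P0; light, P21). Near Trim71 both P21 lines climb to 72.7% and 73.4% in the last window, in the Hoxa6/Hoxa3 valley the ISC line at P21 lies above the differentiated line in 5 of 6 windows, and at Gne only differentiated cells at P0 stand out, at 34.8% in the first window.

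Differentiated cells and ISCs at P21, neither of them the library of the rule, were compared in the same way. Of the valley windows, 3 (0.0502%) were called higher in differentiated cells, against 0.466% of all windows, and 10 (0.167%) lower, against 0.789%. On the summed calls, which include both libraries of this comparison, they were 3 and 9. Valleys chosen in a library of this comparison cannot be used for it, since a window below 15% in ISCs P21 cannot be called lower. At any size, 46 (0.770%) were higher, against 1.03% of all windows, and 255 (4.27%) lower, against 2.04%. Windows of the runs of 1 to 3 were higher in 0.718% and lower in 9.33% of cases, so the lower share of the valleys was above that of all windows but below that of the shorter runs. The median difference per valley was -0.44 points, with 849 of 1062 valleys lower in differentiated cells. It was -0.16 points with every CpG given the same weight, and 685 were then lower. Per window the median was -0.14 points in valleys, -0.38 in the runs of 1 to 3 and -0.52 over all tested windows. These shifts of under 1 point were not checked for conversion either. The differentiated libraries had relatively more calls in CpG-rich windows, with medians of 1657 against 956 calls at P21 in valley windows at least 500 bp of which were CGI.

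Of the valleys with a called window, those of Hoxa6 and Hoxa3 and of Hoxa5 were lower in differentiated cells than in ISCs at P21 by the most. In the valley of Hoxa6 and Hoxa3 (chr6:52158001-52164000, 6 windows) the levels were 3.93% (3.34 to 4.61) in ISCs P0, 3.83% (3.45 to 4.25) in differentiated P0, 27.0% (25.7 to 28.4) in ISCs P21 and 16.1% in differentiated P21. The cell types coincided at P0 and were apart at P21, with ISCs higher. In the window with the largest gap ISCs were at 43.3% and differentiated cells at 24.4% (adjusted p = 4.01e-17, Fisher's exact test), and this window had risen in differentiated cells from 3.01% (adjusted p = 5.55e-72). The neighbouring Hoxa5 valley (chr6:52150001-52157000) was at 4.86%, 5.46%, 14.7% and 8.69%, with 1 window called lower in differentiated cells. The annotation holds overlapping HOXA genes and a long non-coding gene across these windows.

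Sp5, a zinc finger factor and target of the Wnt pathway, had the next largest difference among valleys with a called window (chr2:70309001-70316000, 7 windows, whole gene inside). It was at 3.14% in ISCs P0, 1.64% in differentiated P0 and 6.97% in differentiated P21, which was 4.07 points below ISCs at P21. Most of the difference lay in its last window, at 7.84%, 3.98%, 37.6% and 22.1%, where differentiated cells at P21 were above P0 (adjusted p = 2.24e-78) and below ISCs at P21 (adjusted p = 6.43e-18, Fisher's exact test). The other windows of Sp5 stayed at or below 12.1%.

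The 3 windows called higher in differentiated cells at P21 lay in valleys whose whole level differed by under 1 point. With calls thinned to the lowest library, 1 valley window was called higher. In the Usp1 valley, at a deubiquitinase of DNA repair, the called window had 7 CpGs and was at 29.1% on 55 calls in differentiated cells, and the whole valley was at 0.600% in ISCs and 0.664% in differentiated cells. The others lay in a valley 10221 bp from the start of Hand2 (1.84% in ISCs and 2.57% in differentiated cells, with 133 and 73 calls in the called window) and in the Zic4 valley (3.23% and 2.89%, with 35 calls in the called window in differentiated cells). With at least 60 calls required in all 4 libraries none of the 3 was left, that near Hand2 because of 44 calls in differentiated cells at P0, a library outside this comparison. None of the 3 windows held a CGI base.

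Between the ages in ISCs and between the cell types at P0, the values include the library of the rule and are given without a test. The median change in ISCs from P0 to P21 was 0.32 points, with 686 valleys higher, but -0.15 points for valleys chosen in ISCs P21 and -0.078 points in differentiated P21. The median difference of differentiated cells from ISCs at P0 was -0.39 points.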

How the data were processed

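Genomic DNA of sorted colonic cells was bisulfite-converted, amplified and sequenced by the authors as 100-bp paired ends. Per the labels, reads were processed with Bismark and Bowtie on mm9. The sources used here do not state versions, duplicate removal or bisulfite conversion rates, and conversion could not be checked from calls at CpGs. The deposited files list, for each cytosine, the count of all calls, the count of methylated calls and their fraction; only the counts were used. Both strands of each reference CpG (NCBIM37) were summed, and calls off reference CpGs (0.469% to 0.860% of positions) were left out. Windows were tested between libraries with Fisher's exact test (numba 0.67.0, tested on simulated data against scipy 1.17.1) and Benjamini-Hochberg adjustment over 1444772 windows with 5 CpGs and 30 calls in every library. A call needed an adjusted p below 0.05 and a difference over 15 points. PCR reads without molecular identifiers are not independent molecules, and calls at several CpGs of 1 read were counted as separate calls. Intervals and p-values cover counting error only, with every call treated as independent, so they can be too narrow and too small. Each group had 1 library. Edges used 200-bp bins with at least 2 CpGs and 10 calls. Gene starts came from GENCODE M1.

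The members, gene lists and named valleys were chosen with earlier results of these data known. Named were the 8 widest valleys, the 6 with the largest rise and 4 with the largest fall in differentiated cells and the 3 of each direction between the cell types at P21 (of those with a called window), the 3 widest without a start, and the 3 widest per gene list. Some valleys that this rule names are not reported here. Alternatives changed the limit, the run length, the calls, the window phase, the CpG weights, the library of choice and the call rule. Calls at any size, the summed libraries and calls in valleys chosen at P21 were added after the data were seen.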

Additional observations from a re-analysis of the deposited data

How the results depend on the processing

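No paired analysis was possible because each group had 1 library. No library could be left out for the same reason. Of the recomputed values, 62 stayed within their limits and 54 moved. Leaving out CpGs over 500 calls moved nothing, nor did other edge limits move the change in width. The number of valleys was 2927 with 3 or more windows and 336 with 6 or more. With any annotated start, 84.0% of valleys held one. The median change in differentiated cells (0.27 points) was 0.10 with 3 or more windows, 0.67 with 6 or more, 0.0046 for valleys chosen in ISCs at P21 and 0.18 on the 4 libraries summed. The median change in ISCs (0.32) was 0.12 with 3 windows, 0.71 with 6, 0.26 for valleys chosen in differentiated cells at P0 and 0.11 on the summed libraries, and its sign turned for valleys chosen in the P21 libraries (-0.15 in ISCs, -0.078 in differentiated cells). With equal weights the change in differentiated cells also turned, to -0.052 and -0.043 for the same choices. The median difference between cell types at P21 (-0.44) was -0.33 at a limit of 10%, -0.55 at 20%, -0.50 with 3 windows, -0.15 with CpGs weighted equally (in choosing the valleys too) and -0.35 for valleys chosen in ISCs at P21.

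Counts of called windows followed the limits. In differentiated cells, 45 higher and 16 lower became 15 and 2 at a limit of 10%, 82 and 37 at 20%, 23 and 6 with 6 windows, 80 and 56 over 10 points, 7 and 0 over 30 points, 597 and 283 at any size, 245 and 152 at any size with calls thinned to the lowest library, 5 and 308 in valleys chosen in ISCs at P21 and 6 and 51 on the summed libraries. The lower count alone was 36 with 3 windows and 27 with equal weights. Between cell types at P21, 3 higher and 10 lower became 1 and 4 at 10%, 7 and 18 at 20%, 9 and 40 over 10 points, 1 and 0 over 30 points, 46 and 255 at any size, 17 and 123 at any size with thinned calls, and 9 and 0 in valleys chosen in ISCs at P21. The lower count was 16 with 3 windows. The higher count was 0 with 60 calls per window, 7 with shifted windows and 1 with thinned calls. The majority direction of the calls with age thus turned over with the library of choice. The 0 lower calls between cell types for valleys chosen in ISCs at P21 follow from that choice, which leaves no room for a fall over 15 points. Over 30 points only 1 window was left. Levels below about 1% rest on few methylated calls.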
